A study of Homo sapiens with 24 samples.

Results

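SNU1079 cells kept with the solvent DMSO for 16 h were compared with SNU1079 cells kept with it for 6 h. The values compared come from 6 of the 24 libraries of a bulk RNA-seq series, chosen by their titles. These are 3 at 16 h and 3 at 6 h. The spread behind the p-values was estimated from all 24 libraries. SNU1079 and RBE are established human cholangiocarcinoma (bile duct cancer) cell lines, labelled in the series as IDH1-mutant and as expressing SULT1A1, an enzyme that adds sulfate to small phenols and alcohols. The series set the compound YC-1 against DMSO in both lines, with 3 replicates a group. The DMSO-treated RBE cells at 16 h and at 6 h, with 3 libraries each, were measured in the same way and serve here as the comparison line. All 12 of these DMSO libraries lack YC-1. No cells without DMSO and no starting time were analysed here, so the values describe a change between 2 times in solvent and not an effect of the solvent. Sample titles and the study's design text gave the times, because a separate treatment-time label reads 16 h for every DMSO sample, whatever its title says. The submitters call the replicates biological, but the labels do not say whether they were separate cultures, so p-values measure only the spread between these libraries. Each line is a single cell line, and the labels used here give no solvent concentration, seeding density or medium change.

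Cultured tumour cells are not a still background. NF-kB is a family of transcription factors (RELA, REL, RELB, NFKB1, NFKB2) held in the cytoplasm by inhibitor proteins such as NFKBIA. Once released it switches on cytokines and adhesion molecules together with its own inhibitors, among them NFKBIA and TNFAIP3, which close the loop. Cell division runs on a separate programme in which replication genes are transcribed in G1 and S phase and mitotic genes in G2, the latest of them through promoters that carry CHR and CCAAT elements. The nucleolus makes ribosomes, and genes for its assembly factors are known targets of MYC.

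The deposited values are normalised counts, that is reads per gene divided by a size factor for each library, and they do not correct for gene length, so levels are compared here between libraries and not between genes. Their sums were 19010000 to 19810000 in the 16 h libraries and 19950000 to 20310000 in the 6 h libraries of SNU1079; the reads behind them are not known. One 16 h library, replicate 1, stood apart. Its correlation with its 2 group mates over log2 values was 0.967, against 0.981 to 0.989 for the other 5 SNU1079 DMSO libraries, and 2691 genes lay at least 1 log2 unit from the mean of its mates, against 991 to 1714 genes in those 5. Across 17258 genes its deviation ran with the GC content of the transcript (Spearman rho 0.456), and 16 h replicate 3 deviated the other way (rho -0.53). Mitochondrially encoded transcripts took 6.02% of its normalised counts, against 6.9% to 8.5% in the other 5. Counts over gene lists are therefore also given without replicate 1, and, where centring the fold changes within bins of GC content moved a count by over 1.5 times, with that value. Leaving out replicate 1 did not lessen the relation of the SNU1079 fold change with GC content. Its Spearman rho was -0.142 with that library and -0.317 without it. Genes of the bile duct epithelium were present: KRT7 lay between 25550 and 42420 normalised counts, KRT19 between 18120 and 25550 and EPCAM between 1314 and 1964 over the 6 libraries. Markers of other cell types were partly present. Of 18 hepatocyte markers 10 were high enough to test, with sums of 1762 to 2046 at 16 h and 1827 to 1944 at 6 h, to which CPS1 gave 492 to 824 at 16 h and 468 to 568 at 6 h, while ALB and APOA1 were at 0 in all 6 libraries. Of 15 leukocyte markers 5 were tested, with sums of 1458 to 1592 at 16 h and 1377 to 1401 at 6 h that were mostly CD68, a lysosomal protein, at 1420.0 to 1543 at 16 h and 1331 to 1352 at 6 h; PTPRC did not exceed 2.50. Of 17 stromal and endothelial markers 8 were tested, with sums of 2564 to 3616 at 16 h and 3798 to 4512 at 6 h. COL1A1 gave 2007 to 2834 of these at 16 h and 3207 to 3808 at 6 h, and COL1A2 did not exceed 1.99. No marker of these 3 lists passed in limma, and their part in the results was not tested.

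Of 17860 genes tested with limma on log2(normalised count + 1), 1530 (8.57%) differed between 16 h and 6 h in SNU1079 at an adjusted p (Benjamini-Hochberg over all genes tested) below 0.05. Higher at 16 h were 682 genes (3.82%) and lower were 848 (4.75%). The changes were mostly modest, with a median size of 0.76 log2 units among the higher and 0.65 among the lower genes, and 201 and 168 of them reached 1 log2 unit. Without 16 h replicate 1, 600 genes (3.36%) were higher and 737 (4.13%) lower. Of the 682 higher and 848 lower genes, 474 and 602 kept their call without that library, and all kept their direction. Leaving out a 6 h library cost more calls, with 936, 908 and 932 in all without 6 h replicate 1, 2 or 3. In RBE 8 genes (0.0448%) differed by the same test, 1 of them higher (0.0056%) and 7 lower (0.0392%). The median log2 fold change over all genes was 0.00 in both lines.

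Of 37 gene lists, the one of NF-kB and cytokine genes had the lowest median change. The list held 33 genes, of which CXCL6, IL1B and CSF3 were too low to test. Of the 30 tested, 17 fell and the other 13 did not pass, with a median log2 fold change of -1.22 and a range of -3.75 to 0.07, beside 4.75% lower among all genes tested. In 22 of the 30 every 16 h library lay below every 6 h library, as did 13.9% of all genes tested. The count of 17 stood in each fit that left out 1 of the 6 libraries and after centring on GC content. In bulk RNA, less RNA per cell cannot be told apart from fewer cells that express a gene. In RBE the same 30 genes had a median of -0.21 and 1 of them, TRAF1, passed.

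The promoters of 3 of the fallen genes and of GBP1 are shown so that the letters behind the motif counts can be seen; GBP1 belongs to the interferon list, and a list chosen as NF-kB genes is not independent of NF-kB sites. Each run gives the 200 bases before the start of the RefSeq gene on GRCh38.p14, 5′ to 3′ in the direction of the gene. Capitals mark matches to a 10-base NF-kB pattern in BIRC3, TNFAIP3 and NFKBIA and to a 10-base interferon-stimulated response element pattern in GBP1, each read on either strand. The NF-kB pattern was GGG, any 2 bases, TT, any 1 base and CC, and the response element pattern was GAAA, any 2 bases and GAAA.
BIRC3 (chr11:102317284-102317483, plus strand): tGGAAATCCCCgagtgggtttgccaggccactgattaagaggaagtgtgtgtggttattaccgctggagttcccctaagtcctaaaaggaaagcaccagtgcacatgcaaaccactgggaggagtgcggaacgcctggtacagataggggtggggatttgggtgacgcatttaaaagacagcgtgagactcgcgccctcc
TNFAIP3 (chr6:137867059-137867258, plus strand): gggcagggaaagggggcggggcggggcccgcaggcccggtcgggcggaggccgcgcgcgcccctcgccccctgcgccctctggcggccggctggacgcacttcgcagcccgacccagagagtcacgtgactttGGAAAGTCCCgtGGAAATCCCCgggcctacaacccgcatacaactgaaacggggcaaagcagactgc
NFKBIA (chr14:35404750-35404949, minus strand): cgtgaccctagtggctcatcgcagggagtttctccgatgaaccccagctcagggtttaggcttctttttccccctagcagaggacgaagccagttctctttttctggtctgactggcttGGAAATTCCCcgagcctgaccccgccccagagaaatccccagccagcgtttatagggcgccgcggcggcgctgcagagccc
GBP1 (chr1:89065209-89065408, minus strand): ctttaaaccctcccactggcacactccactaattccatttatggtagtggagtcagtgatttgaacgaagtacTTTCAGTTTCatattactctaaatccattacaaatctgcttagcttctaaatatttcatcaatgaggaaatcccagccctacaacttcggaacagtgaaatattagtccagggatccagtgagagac
The BIRC3 match began 199 bases before the start (position -199), the pair in TNFAIP3 lay at -67 and -55, the match in NFKBIA at -81, and that in GBP1 at -127. Over windows from 250 bases before to 50 after the start, 13 of the 24 NF-kB and cytokine genes with a promoter in the RefSeq table held the NF-kB pattern (54.2%), against 6.7% of 11982 promoters of genes tested and 5.7% of all 27305 promoters. The response element pattern was in 23 of 37 interferon gene promoters (62.2%), against 2.8% of those of genes tested. A match describes letters and is not evidence of binding.

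Signal adaptors and a survival gene were among the genes that fell. TRAF1, a TNF receptor adaptor (ENSG00000056558, chromosome 9, 120902393 to 120929173, GENCODE 29 on GRCh38), had 339, 278 and 329.7 normalised counts at 16 h, against 4206, 4261 and 4244 at 6 h. Its means were 316 ± 32.7 and 4237 ± 27.9 (SD, n = 3 each), a log2 fold change of -3.75 ± 0.11 (SE, adjusted p = 1.07e-15). The gap between the times was far wider than the scatter within either. BIRC3, an inhibitor of cell death that also ubiquitinates NF-kB pathway kinases (ENSG00000023445, chromosome 11, 102317450 to 102339403), had 626, 751 and 1019 at 16 h, against 7241, 7115 and 5407 at 6 h (-3.06 ± 0.26, adjusted p = 2.06e-07). IRAK2, which is not on the list and was named for the size of its change, is a kinase that relays interleukin-1 and Toll-like receptor signals; it had 80.4, 110.3 and 121 at 16 h, against 513, 486 and 502 at 6 h (-2.28). No 16 h library reached any 6 h library in these 3 genes, and the deviating replicate 1 was the lowest 16 h library for BIRC3 and IRAK2 and the highest for TRAF1.

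The inhibitors of the pathway fell as well. TNFAIP3 (chromosome 6, 137867188 to 137883312), a ubiquitin-editing enzyme that dampens the pathway, had 89.9, 56.6 and 81.8 at 16 h, against 354, 475 and 522 at 6 h (-2.56 ± 0.18, adjusted p = 9.02e-09). NFKBIA had 1021, 1099 and 870.5 at 16 h, against 2050, 1823 and 1852 at 6 h (-0.94 ± 0.11, adjusted p = 1.14e-05). NFKBIE, a sister inhibitor, had 198, 336 and 233 at 16 h, against 968, 954 and 892 at 6 h (-1.91). All 3 are known targets of NF-kB, and all 3 were lower in every 16 h library. NFKBIZ, a nuclear member of the inhibitor family, had a log2 fold change of 0.07 and did not pass.

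Of the transcription factor subunits, RELB, which pairs with the product of NFKB2 in the alternative pathway, had 268, 167 and 124 at 16 h, against 814, 891 and 994 at 6 h (-2.33 ± 0.28). NFKB2 itself had 619, 706 and 765 at 16 h, against 2596, 2626 and 2679 at 6 h (-1.92 ± 0.11, adjusted p = 3.12e-10). NFKB1 fell by less, with 619, 650.0 and 855 at 16 h, against 1473, 1424 and 1432 at 6 h (-1.04). These subunit genes are themselves targets of the pathway. REL, at -0.78, did not pass (adjusted p = 0.176).

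Among the secreted products, CXCL8, the neutrophil-attracting chemokine interleukin-8, had 145, 154 and 143 at 16 h, against 807, 716 and 614 at 6 h (-2.26 ± 0.23, adjusted p = 2.54e-06). CCL2, which attracts monocytes, had 619, 741 and 653 at 16 h, against 1737, 1415 and 1476 at 6 h (-1.20). The growth factor for myeloid cells CSF2 had 154, 231 and 178 at 16 h, against 420, 426 and 484 at 6 h (-1.25), and LIF, an interleukin-6 family cytokine, had 1624, 1591 and 1465 against 2898, 2933 and 3227 (-0.95). CCL20 was scarce at both times, with 0, 0 and 1.18 at 16 h, against 9.68, 8.95 and 7.79 at 6 h, and passed. IL6 (-1.44, adjusted p = 0.101) and TNF (-1.47, adjusted p = 0.117) had falls of similar size that did not pass. CXCL1 was listed at 0 in all 6 libraries. Of the genes that act in the cell or on its surface, ICAM1, an adhesion molecule for leukocytes, had 580.1, 571 and 459 at 16 h, against 1719, 1625 and 1963 at 6 h (-1.72). SOD2, the mitochondrial superoxide dismutase, had 3013, 2530 and 2879 at 16 h, against 9184, 8885 and 8946 at 6 h (-1.69 ± 0.09, adjusted p = 2.77e-10). Summed over the list, normalised counts came to 35280, 31270 and 29530 at 16 h, against 73680, 73740 and 75440 at 6 h.

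**Figure D1:**
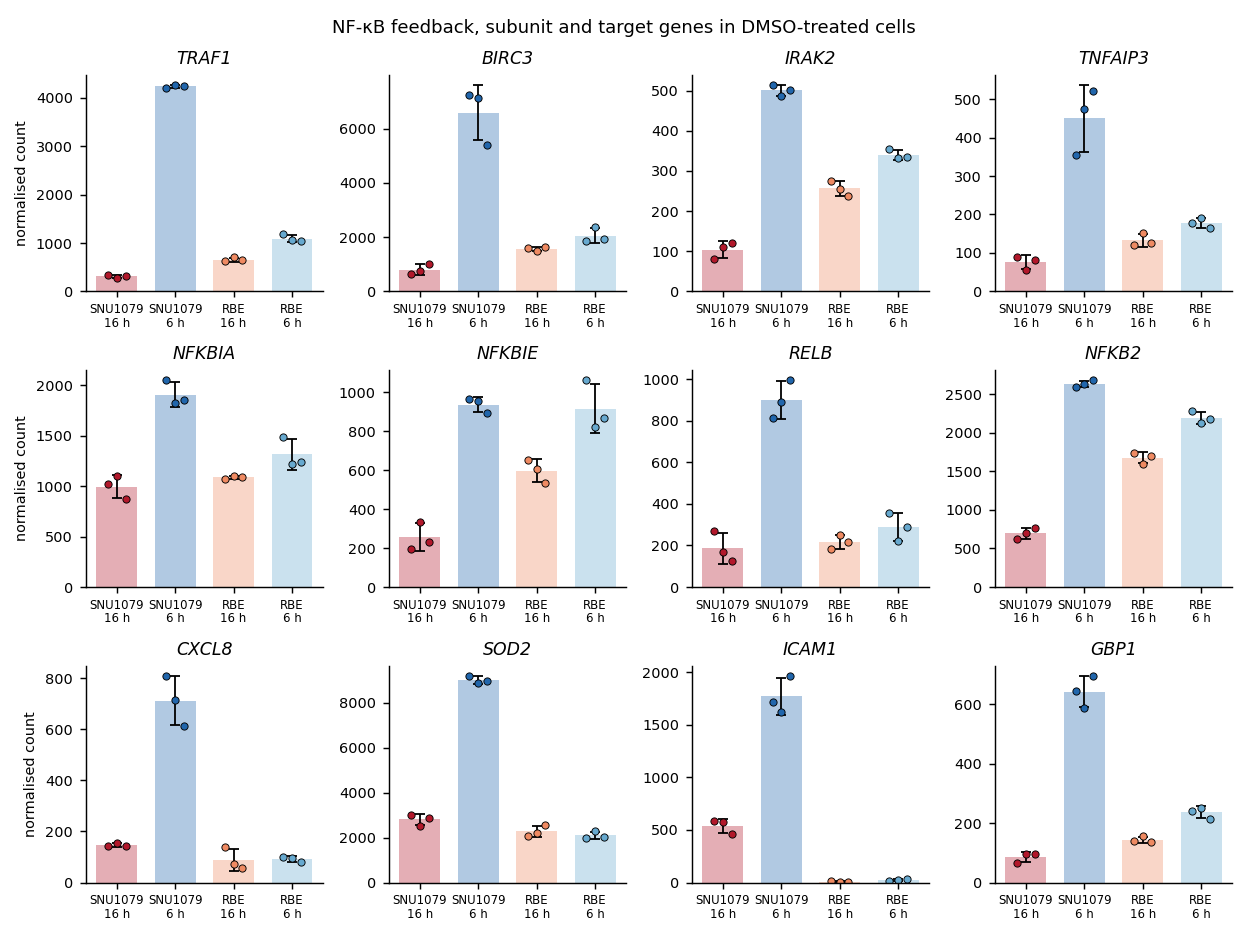
Normalised counts of 12 genes of the NF-kB and interferon groups in DMSO-treated cells. Each panel has 1 gene, the columns run from SNU1079 at 16 h and 6 h to RBE at 16 h and 6 h, bars are means of 3 libraries, error bars are SD and points are libraries. In each panel the SNU1079 points at 16 h lie below those at 6 h, as in TRAF1 with means of 316 and 4237.

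Of 46 interferon genes tested, 1 rose and 5 fell, beside 3.82% higher and 4.75% lower among all genes tested, and their median log2 fold change was -0.17, against 0.02 in RBE. Without 16 h replicate 1 none rose and 5 fell. Their transcripts had a median GC content of 43.8%, and after centring on GC content 2 rose and 10 fell. GBP1, a guanylate-binding protein that attacks the membranes of intracellular pathogens (chromosome 1, 89052319 to 89065360), had 66.5, 97.3 and 95.4 at 16 h, against 645, 588 and 694 at 6 h (-2.90 ± 0.18, adjusted p = 1.39e-09). Relatives of GBP1 differed among themselves, GBP3 with 798, 1033 and 1015 at 16 h, against 2005, 1578 and 1582 at 6 h (-0.86), and GBP4 with 3.83, 6.78 and 13.9 at 16 h, against 82.4, 135 and 89.6 at 6 h (-3.61 ± 0.67, adjusted p = 0.00129). GBP2 had 86.6, 114 and 92.1 at 16 h, against 183, 134 and 113 at 6 h (-0.53, adjusted p = 0.134) and did not pass, and GBP4 is not on the list. These genes are similar in sequence, so reads may have been shared between them. TRIM22, an antiviral ubiquitin ligase, had 100.4, 73.6 and 97.9 at 16 h, against 177, 168 and 248 at 6 h (-1.11). Among other interferon genes, IRF1 (0.15), MX1 (0.32) and ISG15 (-0.93, adjusted p = 0.267) did not pass, and IFIT1, with 238, 253 and 228 at 16 h and 154, 101 and 89.0 at 6 h, had a value of 1.10 that missed the threshold (adjusted p = 0.0568). STAT2 (0.51) was the riser; it no longer passed without 16 h replicate 1 or 3 or without any of the 6 h libraries (0.44, 0.52, 0.50, 0.55 and 0.49). Of 21 antigen presentation genes, 4 fell, or 3 without 16 h replicate 1. TAP1, which pumps peptides into the endoplasmic reticulum for loading, had 911, 870.0 and 801 at 16 h, against 1610, 1412 and 1510 at 6 h (-0.81), whereas HLA-B (-0.17) and B2M (0.06) did not pass. The count of 4 was 1 to 3 with any 1 of the 6 libraries left out, the calls of CD74, TAPBP and HLA-E being the ones lost.

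Mitotic genes ran the other way. Of 39 G2 and mitosis genes, 30 rose and 9 did not pass, with a median log2 fold change of 0.79 and a range of 0.39 to 1.36, beside 3.82% higher among all genes tested. In 37 of them every 16 h library lay above every 6 h library, as did 14.0% of all genes tested. Without 16 h replicate 1, 34 rose, and over the 6 fits that left out 1 library the count ran from 24 to 34. It was 15 when the spread was taken from the 12 SNU1079 libraries alone. Over all alternative fits it ran from 9 to 39. Per library, the median member stood 0.61, 0.82 and 0.95 log2 units above the mean of the 6 h libraries in 16 h replicates 1, 2 and 3, so the deviating library was the least changed. The members' transcripts were poorer in GC (median 43.2%) than those of all genes tested (48.4%), and after centring within bins of GC content 37 rose. More cells in G2 and mitosis and more RNA per such cell cannot be told apart.

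The promoters of a cyclin, a mitotic kinase and a kinetochore protein show the elements that this gene group is known for. Capitals mark the cell cycle homology region (CHR) pattern, TTTGAA or TTTAAA, and CCAAT, each on either strand.
CCNB1 (chr5:69166950-69167149, plus strand): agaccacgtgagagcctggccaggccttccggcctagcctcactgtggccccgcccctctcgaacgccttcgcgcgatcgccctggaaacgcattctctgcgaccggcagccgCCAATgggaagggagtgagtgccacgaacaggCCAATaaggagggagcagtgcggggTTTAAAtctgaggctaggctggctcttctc
PLK1 (chr16:23678689-23678888, plus strand): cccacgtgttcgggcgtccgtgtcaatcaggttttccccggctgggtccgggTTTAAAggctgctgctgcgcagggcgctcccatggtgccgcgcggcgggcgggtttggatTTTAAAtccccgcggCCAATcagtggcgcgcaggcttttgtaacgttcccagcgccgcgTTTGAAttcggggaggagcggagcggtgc
CENPF (chr1:214602995-214603194, plus strand): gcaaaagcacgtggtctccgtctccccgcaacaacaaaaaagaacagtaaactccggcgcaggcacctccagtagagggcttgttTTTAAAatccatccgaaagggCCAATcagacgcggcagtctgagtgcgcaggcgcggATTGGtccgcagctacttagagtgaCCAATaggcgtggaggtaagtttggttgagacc
In CCNB1 a pair of CCAAT boxes at -87 and -55 preceded TTTAAA at -30. In PLK1 the CHR pattern lay at -148, -88 and -29 and CCAAT at -73. CENPF had TTTAAA at -115, CCAAT at -94 and -33 and its reverse complement at -58. Both patterns together were in 22 of 33 promoters of the mitotic list (66.7%), against 6.5% of promoters of genes tested; CHR alone was in 27 (81.8%, against 16.0%) and CCAAT in 26 (78.8%, against 36.3%).

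CCNB1, the cyclin that drives entry into mitosis, had 3609, 3881 and 3734 at 16 h, against 2361, 2366 and 2385 at 6 h (0.66 ± 0.10, adjusted p = 0.000271). CDC25C, the phosphatase that releases cyclin B kinase from its brake, had 324, 316 and 342 at 16 h, against 124, 128 and 128 at 6 h (1.36 ± 0.17, adjusted p = 2.15e-05), the largest rise of the list. Kinetochore and spindle genes gave the same picture. NDC80, which couples kinetochores to microtubules, had 772, 949.8 and 963 at 16 h, against 328, 373 and 350.0 at 6 h (1.34), and CENPF, a large kinetochore protein, had 7296, 8351 and 8377 against 3713, 3975 and 3983 (1.04 ± 0.13). The cytokinesis motor KIF20A had 1895, 1881 and 1880 at 16 h, against 886, 866 and 917 at 6 h (1.08 ± 0.10, adjusted p = 3.26e-07). TOP2A, which untangles sister chromatids, had 12850, 12830 and 15760 at 16 h, against 7345, 6777 and 6725 at 6 h (0.98), and MKI67, the proliferation marker Ki-67, had 8489, 8056 and 9564 against 4629, 5228 and 4781 (0.83). FOXM1, a transcription factor of the G2 programme, had 2923, 2564 and 2782 at 16 h, against 2061, 1794 and 1804 at 6 h (0.55). PLK1 had 1648, 1599 and 1692 at 16 h, against 1286, 1040.0 and 1248 at 6 h (0.47 ± 0.10, adjusted p = 0.00584); without 6 h replicate 2 its change was 0.38 and no longer passed, as for AURKA (0.53, and 0.50 without that library). CDK1 missed the threshold (0.70, adjusted p = 0.0501), with 2656, 3882 and 4057 at 16 h, against 2200, 2174 and 2039 at 6 h, the lowest 16 h value being that of replicate 1.

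Genes of G1 and S phase moved less. Of 38 G1/S and DNA replication genes, 10 rose and 1 fell, beside 3.82% higher and 4.75% lower among all genes tested. Their median was 0.16, against 0.11 in RBE, and with any 1 library left out 7 to 11 rose. Without 16 h replicate 1, 11 rose and none fell, and after centring on GC content 16 rose and 2 fell. LIG1, the ligase that joins Okazaki fragments, had 2475, 2272 and 2305 at 16 h, against 1400, 1229 and 1229 at 6 h (0.87). CDC45, a part of the replicative helicase, had 1076, 952 and 990.2 at 16 h, against 502, 524 and 674 at 6 h (0.84). The polymerase alpha subunits POLA1 (0.73) and POLA2 (0.74) rose with them. The E2F target genes of late G1 gave other values, with E2F1 at -0.40 (adjusted p = 0.0763), CCNE2 at -0.02 and PCNA at 0.41 (adjusted p = 0.0639). Of 24 repair genes of the Fanconi anaemia and homologous recombination pathways, 7 rose and 17 did not pass, and 4 to 6 rose with any 1 library left out (6 without 16 h replicate 1). After centring on GC content 9 of these repair genes rose and 1 fell. BRCA1, which directs repair of broken DNA, had 2306, 2632 and 3014 at 16 h, against 1806, 1404 and 1520 at 6 h (0.75), and FANCI and FANCC rose by 0.75 and 0.91.

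After centring on GC content, 8 of 14 tested genes of G1 control (cyclins, CDK inhibitors and pocket proteins) rose and 3 fell. Without that centring 3 rose and 1 fell, with and without 16 h replicate 1, beside 3.82% higher and 4.75% lower among all genes tested. The gene that fell was CCND1, cyclin D1, which links growth factor signals to G1 progress. It had 8208, 6091 and 6737 at 16 h, against 16360, 15970 and 17480 at 6 h (-1.25 ± 0.15, adjusted p = 1.86e-05). CDKN2C, an inhibitor of the cyclin D kinases, had 281, 380.1 and 360.3 at 16 h, against 155, 131 and 140.0 at 6 h (1.25 ± 0.15). The cyclin and its kinase inhibitor thus moved in opposite directions in the same libraries. With any 1 library left out, 1 to 3 genes of this list rose and 1 or 2 fell, and CCND1 and CDKN2C passed each time. CDKN1A (-0.26) and CDKN1B (0.69, adjusted p = 0.0523) did not pass.

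Nucleolar genes fell by small amounts. Of 43 ribosome biogenesis genes tested, 23 fell and 20 did not pass, with a median log2 fold change of -0.41 and a range of -0.90 to 0.17. Among all genes tested 4.75% fell. The value was negative in 40 of the 43, and in 32 every 16 h library lay below every 6 h library, as in 13.9% of all genes tested. The count depended on the fit and ran from 4 to 31 over all alternative fits. It was 15 without 16 h replicate 1 and 15 without 6 h replicate 1 or 2. With each library scaled on its ribosomal protein genes it was 12. It was 10 with the spread of the 12 SNU1079 libraries alone and 31 after centring on GC content. RRP12, which carries pre-ribosomes through export, had 1179, 1064 and 833 at 16 h, against 1755, 1866 and 2084 at 6 h (-0.90). URB2, a factor of the large subunit, had 889, 915 and 1038 at 16 h, against 1673, 1812 and 1765 at 6 h (-0.89), and RRS1, a regulator of the same subunit, had 793, 856 and 679 against 1375, 1345 and 1346 (-0.81). NOP2, a ribosomal RNA methyltransferase, had 1943, 1712 and 1893 at 16 h, against 2690, 2783 and 2671 at 6 h (-0.56 ± 0.09, adjusted p = 0.000387). The most abundant nucleolar proteins did not follow, with NCL at -0.14 and FBL at 0.17. MYC had 2531, 2329 and 1918 at 16 h, against 3526, 3340 and 3420 at 6 h (-0.61 ± 0.11, adjusted p = 0.0013). Among 12 tested genes of the MYC, MAX and MXD network, 1 rose and 3 fell, MYC included. MYC passed whichever library was left out, but with any 1 left out the list had 0 to 1 risers and 2 to 3 fallers. The riser MYCL (0.95) and the faller MLXIP (-0.44) no longer passed without 16 h replicate 2 or 3 or any 6 h library (0.84 to 1.03 and -0.47 to -0.39). After centring on GC content 2 rose and 4 fell. None of 57 cytosolic ribosomal protein genes passed in limma or had an unadjusted p below 0.05, and their median was 0.06. The E-box CACGTG that MYC binds was in 11 of 35 nucleolar gene promoters (31.4%), against 9.7% of those of genes tested.

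**Figure D2:**
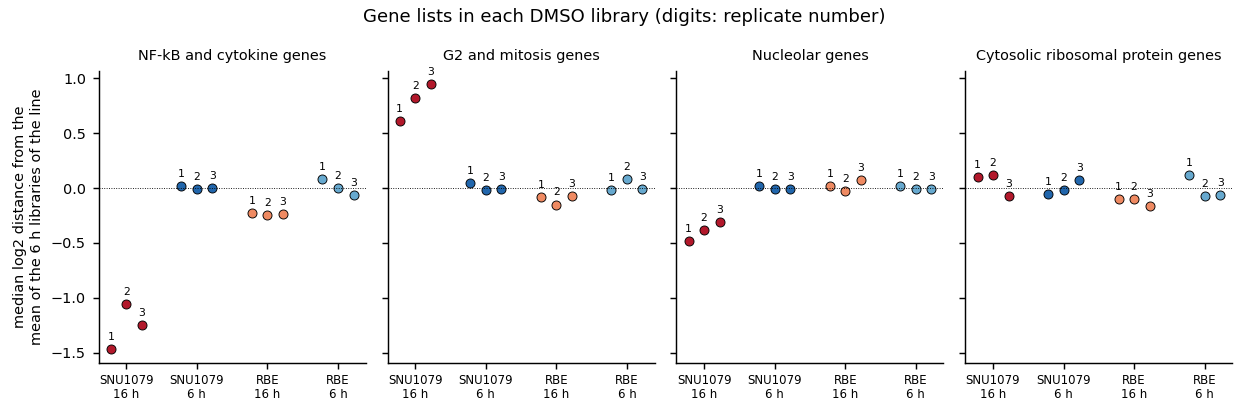
Median level of 4 gene lists in each DMSO library, in log2 units above the mean of the 6 h libraries of the same line; digits give the replicate, and SNU1079 and RBE and the times are shown side by side. The mitotic list stands at 0.61 to 0.95 in the 16 h libraries of SNU1079, with replicate 1 lowest, while the nucleolar list lies between -0.48 and -0.31.

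Genes that answer growth factors and serum changed in both directions. Of 35 immediate early genes, 4 rose and 9 fell, with and without 16 h replicate 1, beside 3.82% higher and 4.75% lower among all genes tested. EGR1, a zinc-finger factor induced within minutes of receptor activation, had the largest rise of all genes named by size, with 202, 270.4 and 266 at 16 h, against 54.0, 60.6 and 49.8 at 6 h (2.14 ± 0.26, adjusted p = 1.58e-05). FOS, induced by the same signals, had 42.6, 41.4 and 32.7 at 16 h, against 8.91, 13.3 and 11.2 at 6 h (1.72). Feedback inhibitors of the ERK pathway did not rise with them. SPRY4, which restrains receptor signalling, had 121, 156 and 139.8 at 16 h, against 259, 252 and 302 at 6 h (-0.96), and the ERK phosphatase DUSP5 had 779.9, 759 and 782 against 1407, 1457 and 1436 (-0.89). SPRED1 (-0.84), SRF (-0.97), JUN (-0.71) and DUSP4 (-0.62) also fell, while DUSP6 stood at 0.20. EGFR, the receptor for epidermal growth factor, had 12090, 10790 and 14730 at 16 h, against 20590, 21040 and 18270 at 6 h (-0.68). Its ligand HBEGF (-0.50) and the ERBB3 and ERBB4 ligand NRG1 (-0.87) fell as well. EREG, another ligand of the receptor family, went the other way and rose (1.21, adjusted p = 0.013). Its rise no longer passed without 16 h replicate 3 or 6 h replicate 3 (0.97 and 1.02). Of the 13 tested genes of that family, 1 rose and 4 fell; 1 rose and 3 fell without 16 h replicate 1, and 2 rose and 4 fell after centring on GC content.

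Of 17 YAP target genes, 1 rose and 5 fell, beside 3.82% higher and 4.75% lower among all genes tested. With any 1 library left out 3 to 4 fell (4 without 16 h replicate 1), and after centring on GC content 2 rose and 6 fell. CTGF, a matrix-associated growth modulator, had 559.5, 688 and 628 at 16 h, against 1171, 1165 and 1132 at 6 h (-0.89), and LATS2, the kinase that restrains YAP, fell by 0.68 on the log2 scale. CYR61 (-0.06) and ANKRD1 (-0.33) did not pass. Of 23 TGF-beta and SMAD genes, 2 rose and 5 fell, with and without 16 h replicate 1. In RBE 1 gene of this list fell. INHBA, the activin A subunit, had 4658, 4419 and 4722 at 16 h, against 13180, 11710 and 11480 at 6 h (-1.40), and BMP2 had 194, 237 and 221 against 486, 498 and 466 (-1.15). Of 17 Notch pathway genes tested, 1 rose and 1 fell (11.8%, beside 8.57% in either direction among all genes tested). HES1, a Notch target, rose by 0.77 and the Notch ligand JAG1 fell by 0.50 on the log2 scale. Without 16 h replicate 1, and also after centring on GC content, 1 gene of this list rose and 2 fell.

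**Figure D3:**
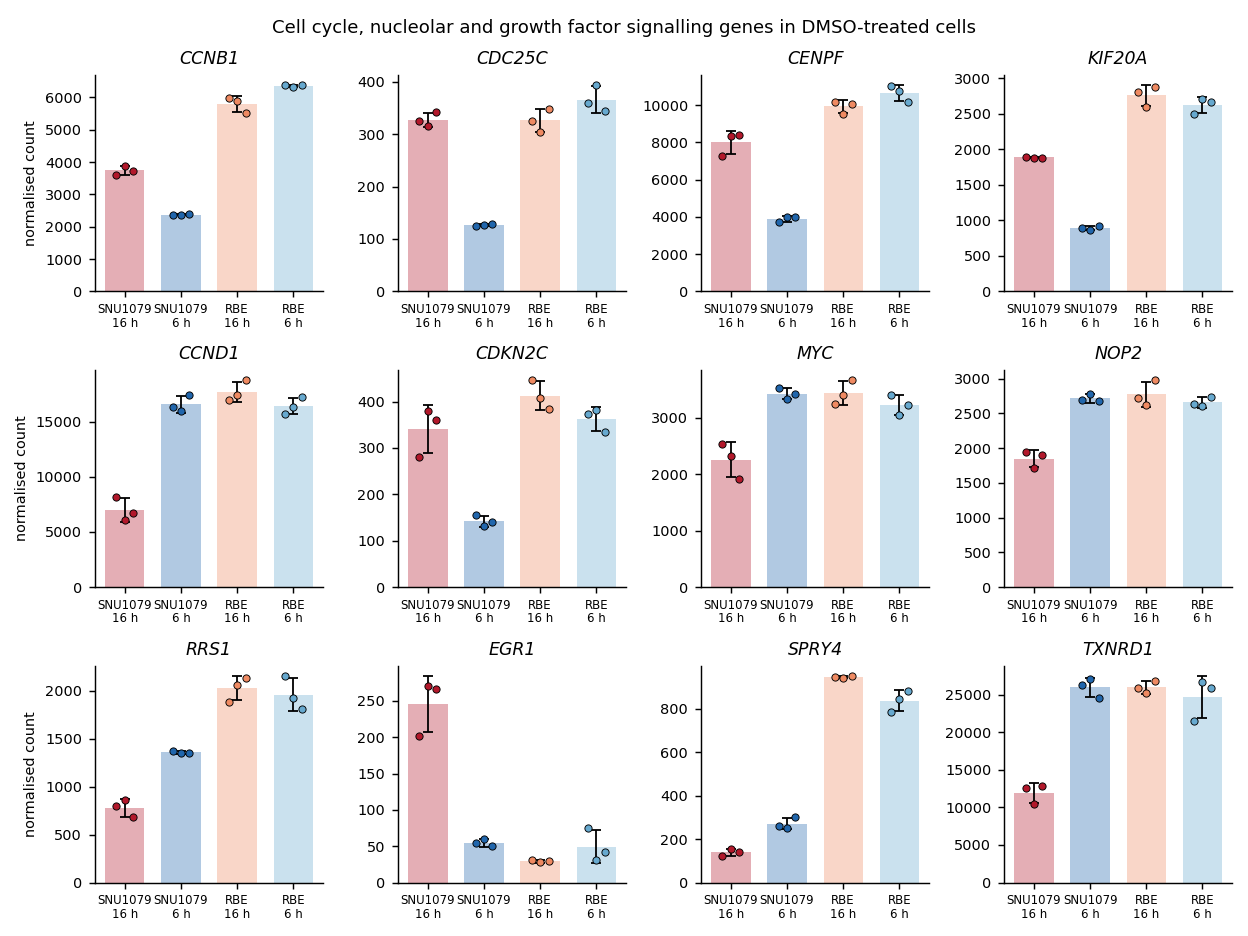
Normalised counts of 12 cell cycle, nucleolar and growth factor genes in DMSO-treated cells. Columns run from SNU1079 at 16 h and 6 h to RBE at 16 h and 6 h, bars are means of 3 libraries, error bars are SD and points are libraries. CCNB1, CDC25C, CENPF, KIF20A, CDKN2C and EGR1 are higher at 16 h in SNU1079 and the other 6 genes are lower, with no overlap of points in any panel for that line.

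Stress and metabolic genes changed in part, and their counts stand beside 3.82% higher and 4.75% lower among all genes tested. Of 25 targets of NRF2, the factor that answers oxidants, 9 fell and 1 rose, and 5 to 8 fell with any 1 library left out (5 without 6 h replicate 2 or 3). Without 16 h replicate 1, 8 fell and none rose. TXNRD1, thioredoxin reductase, had 12530, 10460 and 12860 at 16 h, against 26240, 27100 and 24590 at 6 h (-1.12 ± 0.10, adjusted p = 1.62e-07). HMOX1, which breaks down haem, had 848, 859 and 744 at 16 h, against 1597, 1681 and 1691 at 6 h (-1.02), and the cystine importer SLC7A11 had 169, 323 and 554 against 1131, 1112 and 726 (-1.64). NQO1, often taken as the standard target, stood at -0.19 and did not pass. Of 30 genes of the ATF4 and CHOP response, 3 rose and 7 fell. With any 1 library left out 1 to 3 rose (1 without 16 h replicate 3 or 6 h replicate 3) and 3 to 6 fell; without 16 h replicate 1, 3 rose and 6 fell. The amino acid transporter SLC7A5 had 2168, 1854 and 1564 at 16 h, against 3298, 3426 and 3542 at 6 h (-0.89), whereas asparagine synthetase ASNS (-0.30) did not pass. Of 21 heat shock genes, 6 fell; without 16 h replicate 1, 4 fell and 1 rose, and after centring on GC content 6 fell and 2 rose. HSPA8, a constitutive chaperone, had 47350, 47360 and 49570 at 16 h, against 76650, 70630 and 73820 at 6 h (-0.61), and the inducible copies HSPA1A (-0.71) and HSPA1B (-1.24), which are nearly identical so that reads may be split between them, fell too. Of 20 genes of the unfolded protein response 4 rose (1 or 2 with any 1 library left out, 2 without 16 h replicate 1) and 2 fell. Those that fell were HERPUD1 (-0.75) and XBP1 (-0.40), while the chaperone HSPA5 stood at -0.03.

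Of 25 cholesterol synthesis genes, 8 rose and 1 fell, with a median of 0.26, against 0.23 in RBE; 6 rose and 1 fell without 16 h replicate 1, and 8 rose and 2 fell after centring on GC content. Among all genes tested 3.82% were higher and 4.75% lower. FDPS, which makes farnesyl diphosphate, had 2296, 2318 and 2210 at 16 h, against 1472, 1363 and 1482 at 6 h (0.66), and EBP, a sterol isomerase, had 734, 714 and 669 against 407, 392 and 454 (0.76). HMGCS1, an early enzyme of the pathway, stood at -0.06. Of 11 fatty acid genes 3 rose (2 without 16 h replicate 1; after centring on GC content 3 rose and 1 fell), among them the desaturase SCD with 10300, 10320 and 12650 at 16 h, against 6336, 6291 and 6039 at 6 h (0.83). Of 34 tested HIF-1 target and glycolysis genes, 3 rose and 3 fell. With any 1 library left out 2 to 4 rose and 1 to 2 fell, 3 and 1 without 16 h replicate 1, and after centring on GC content 5 rose and 3 fell. ENO2 had 1298, 1039 and 1028 at 16 h, against 644, 628 and 719 at 6 h (0.75), VEGFA fell by 0.41 on the log2 scale and LDHA stood at -0.08. Of 29 p53 targets, 1 rose and 6 fell, against 2 and 6 without 16 h replicate 1 and 2 and 10 after centring on GC content; GADD45A (-0.75) and BTG2 (-0.48) were among those that fell. CYP1A1, the drug-metabolising enzyme that the aryl hydrocarbon receptor controls, had 9.96, 18.8 and 6.92 at 16 h, against 51.0, 30.4 and 56.3 at 6 h (-1.92). Of the 7 tested targets of that receptor 1 rose and 1 fell, with and without 16 h replicate 1. The riser was CYP1B1, a related enzyme, with 2069, 2579 and 3235 at 16 h, against 1644, 1997 and 1574 at 6 h (0.58, adjusted p = 0.00866); without 16 h replicate 3 or 6 h replicate 3 it no longer passed (0.42 and 0.51).

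Of 19 circadian clock genes, 3 rose and 2 fell, beside 3.82% higher and 4.75% lower among all genes tested. Their median log2 fold change was 0.16, against 0.24 in RBE. With any 1 library left out, 2 or 3 rose and 1 or 2 fell, and 3 rose and 2 fell without 16 h replicate 1. PER2, a repressor of the clock, had 194, 107 and 112 at 16 h, against 340.4, 296 and 269 at 6 h (-1.17). The output genes DBP and HLF, related factors that the clock controls, went the other way. DBP had 168, 118 and 109 at 16 h, against 53.6, 62.4 and 76.2 at 6 h (1.02), and HLF had 1142, 807 and 926 against 432, 457 and 496 (1.04). PER2, DBP and HLF passed whichever library was left out.

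No gene passed in limma in 7 lists, among them the 13 mitochondrially encoded mRNAs and the 57 ribosomal protein genes, neither of which held a gene with an unadjusted p below 0.05. Of 17 sulfonation genes, 2 and 1 had an unadjusted p below 0.05 in the higher and lower direction, and of 19 complement and acute phase genes, 1 and 1; after centring on GC content 2 sulfonation genes rose, and 1 complement gene rose and 1 fell. SULT1A1, which the labels give as expressed in both lines, had 1690, 1414 and 1236 at 16 h, against 1391, 1465 and 1478 at 6 h (-0.01, adjusted p = 1.0), and its near-identical relatives may share its reads. Of the markers of other cell types, 10 hepatocyte genes were tested, of which 1 had an unadjusted p below 0.05, and neither the 8 stromal and endothelial nor the 5 leukocyte genes tested held such a gene. Of 15 tested cholangiocyte markers, SOX9, a progenitor and bile duct factor, had 335, 382 and 364 at 16 h, against 815, 760.0 and 605 at 6 h (log2 fold change -1.0); 13 of the 15 did not pass.

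**Figure D4:**
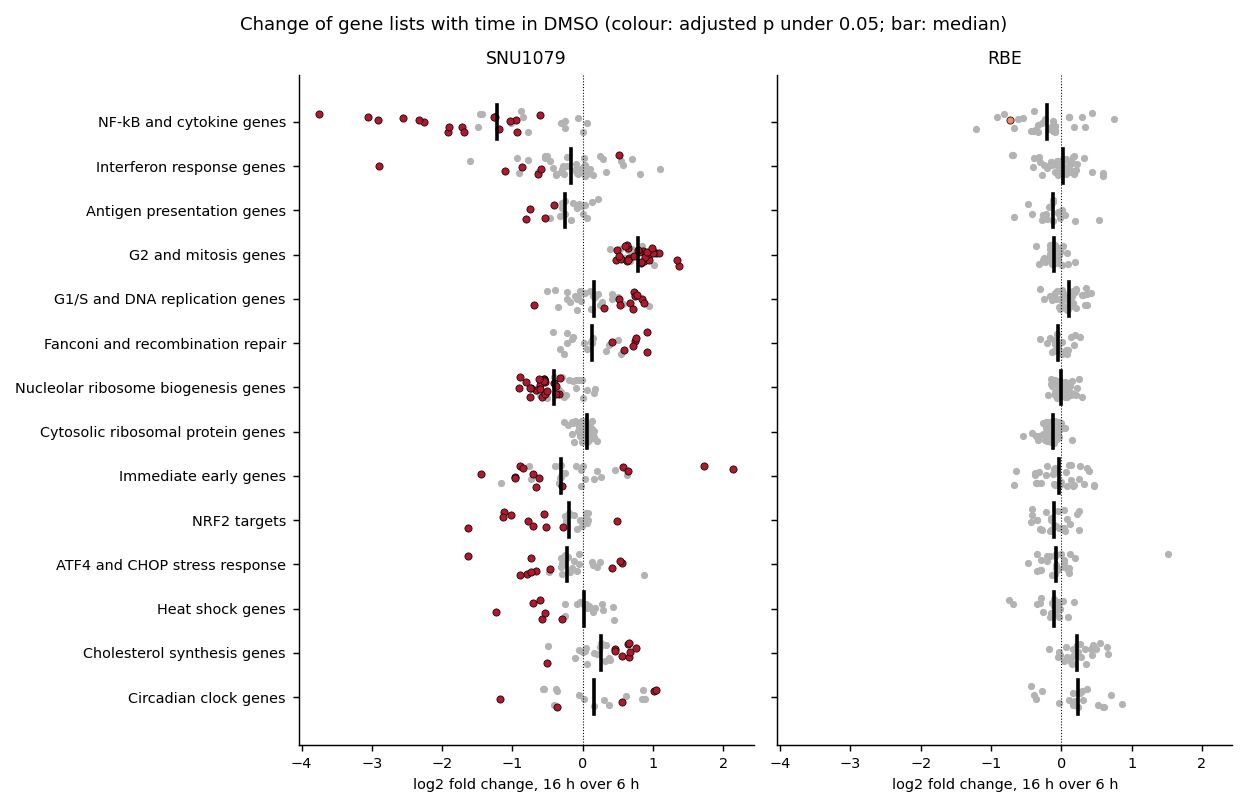
Log2 fold change of each tested member of 14 gene lists, 16 h over 6 h in DMSO, with SNU1079 on the left and RBE on the right; coloured points passed the test and bars are list medians. In SNU1079 the medians run from -1.22 for NF-kB and cytokine genes to 0.79 for mitotic genes, while in RBE those 2 lists lie at -0.21 and -0.10.

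Among genes named for the size of their change outside these groups, OVGP1, a secreted glycoprotein first known from the oviduct, had 148, 177 and 149 at 16 h, against 47.6, 37.9 and 44.6 at 6 h (1.84). DHRS3, a retinaldehyde reductase, had 487, 415 and 402 at 16 h, against 161, 144 and 142 at 6 h (1.53), and PDCD4, an inhibitor of translation initiation, had 1144, 1274 and 1327 against 491, 406 and 538 (1.39). PHF7 (1.67), UNC5CL (1.496), FAM214A (1.43), TSPAN12 (1.39), MTCP1 (1.38) and OLMALINC (1.38) rose and kept their calls whichever of the 6 libraries was left out. NR1H4, the bile acid receptor FXR, had 59.5, 117 and 126 at 16 h, against 26.99, 44.2 and 24.1 at 6 h (1.61), but no longer passed without 16 h replicate 2 or 3 or any 6 h library (1.47, 1.42, 1.52, 1.87 and 1.45). VASN (1.39), a cell surface binder of TGF-beta, no longer passed without 16 h replicate 1 or 2 or 6 h replicate 1 (1.09, 1.33 and 1.22). At the low end, the tight junction protein CLDN1 had 1088, 1681 and 1789 at 16 h, against 6410, 6238 and 4626 at 6 h (-1.94). The Wnt ligand WNT4 had 33.2, 17.2 and 19.9 at 16 h, against 136, 119 and 156 at 6 h (-2.54), but no longer passed without 16 h replicate 2 or 3 or any 6 h library (-2.36, -2.46, -2.55, -2.64 and -2.44).

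The time change in SNU1079 was tested against that in RBE, gene by gene. It differed for 350 genes (1.96%), of which 165 (0.924%) had the higher change in SNU1079 and 185 (1.04%) the lower. That count was 204 to 230 without any 1 of the RBE 16 h libraries, RBE 6 h replicate 1 or 2, or SNU1079 6 h replicate 2 or 3, and that of 8 genes in RBE was 4 without RBE 16 h replicate 1, 16 without 16 h replicate 3 and 5 without 6 h replicate 3. In the NF-kB and cytokine list the change was lower in SNU1079 for 14 of 30 genes, in the mitotic list it was higher for 23 of 39, and in the nucleolar list it was lower for 9 of 43. TRAF1 fell in both lines, with 624, 705 and 649.6 in RBE at 16 h, against 1177, 1055 and 1045 in RBE at 6 h (-0.73), and its fall was the deeper in SNU1079. For BIRC3 RBE had 1605, 1485 and 1637 at 16 h, against 1856, 2393 and 1934 at 6 h, and CXCL8 averaged 89.6 at 16 h and 91.3 at 6 h in that line. GBP1 had 141, 155 and 135 at 16 h in RBE, against 242, 252 and 214 at 6 h (-0.71, adjusted p = 0.27), and the difference between the lines passed (adjusted p = 6.73e-05). CCND1 averaged 17750 at 16 h and 16460 at 6 h in RBE (0.11), and the difference passed (adjusted p = 0.00159), as it did for MYC (adjusted p = 0.0218) and TXNRD1 (adjusted p = 3.79e-05). EGR1 averaged 29.3 at 16 h and 49.5 at 6 h in RBE (-0.64), which did not pass, and the difference between the lines passed (adjusted p = 0.00024).

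The 8 genes that passed in RBE included, besides TRAF1, CGNL1 (0.70), which was higher at 16 h, and DNAJB2 (-1.07), TNFRSF19 (-1.04), C15orf48 (-0.93), FHL2 (-0.75) and TUFT1 (-0.44), which were lower. Of these 8 genes, 1 higher and 4 lower ones also passed in SNU1079 in the same direction. Among them were TRAF1 and, with their SNU1079 values, CGNL1 (0.90), C15orf48 (-0.62) and DNAJB2 (-0.57). TNFRSF19 (-0.45, adjusted p = 0.0579), FHL2 (-0.06) and TUFT1 (0.09) did not pass there.

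**Figure D5:**
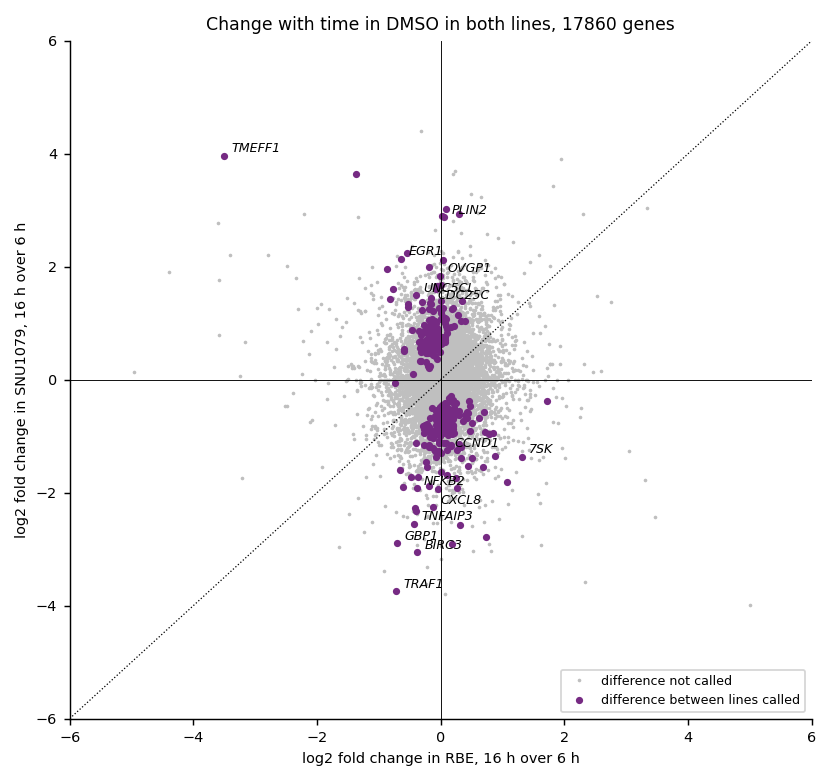
Log2 fold change of each gene tested, 16 h over 6 h in DMSO, in SNU1079 (vertical axis) and RBE (horizontal axis). Purple points are the 350 genes whose change differed between the lines, and the dotted line marks equal change; TRAF1 lies at -3.75 in SNU1079 and -0.73 in RBE.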

How the data were processed

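Poly(A) RNA libraries (TruSeq Stranded mRNA, per the labels' protocols) were made from 24 samples in 8 groups of 3. The authors deposited 1 table of normalised counts, a signal per gene and library made with STAR, DESeq2 and hg38, per the submitters' processing notes; the counting tool, strand setting and versions were not given in the sources used here. Whole reads could not be recovered from the values, so depth is unknown and the planned scale for normalised values was kept: limma 3.58.1 in R 4.3.3 on log2(value + 1), with 1 mean for each of 8 groups, 16 residual degrees of freedom, an intensity trend and two-sided tests. A fold change on this scale understates the change of low genes. Genes with at least 10 in at least 3 of the 24 libraries were tested (17860 of 57820 rows, of which 24157 were 0 in every library), with Benjamini-Hochberg adjustment over all of them and a threshold of 0.05. The fit was also run on simulated data with independent normal errors and the same spread in all libraries for a gene. Those data held no deviating library, so they cannot show how the fit handles the deviations seen here. An exact permutation test of 3 against 3 cannot go below p = 0.1 and was not used.

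The comparison, the 37 gene lists and the members named were chosen with earlier results of these data known. By the naming rule, the text gives the 12 highest and 12 lowest changes among genes that passed, had a symbol, non-overlapping times and, in the group where they were higher, a mean of 100 or more; the 5 highest and 5 lowest differences between lines; and each list's key genes with up to 3 more. Some genes that the rule names are not reported here. Genes named outside this rule, such as those that passed in RBE, were chosen after their values were seen. BOP1, ACACA, TXNIP, CD24 and PECAM1 found no row under these symbols. Coordinates are those of GENCODE 29 on GRCh38, and promoters come from RefSeq (GRCh38.p14). Alternatives changed the pseudocount, filter, scaling, trend, weights, samples and libraries; leaving out 3 libraries, leaving out 16 h replicate 1 within the line and centring on 20 bins of transcript GC were chosen after seeing the data.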

Additional observations from a re-analysis of the deposited data

Results flagged for a closer look

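The change from 6 h to 16 h in DMSO differed between SNU1079 and RBE for 350 genes by the limma interaction test, and 24 named genes stood out among them. Values are log2 differences, the SNU1079 change minus the RBE change. These 24 were named for the size of their change in SNU1079 or of the difference between lines. Among them, several NF-kB genes had the lower change in SNU1079: TRAF1 (-3.02), BIRC3 (-2.68), CXCL8 (-2.14), TNFAIP3 (-2.13), RELB (-1.94), IRAK2 (-1.87), NFKB2 (-1.53) and NFKBIE (-1.30). GBP1 (-2.19) and CLDN1 (-1.90) were lower with them.

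The 7SK small nuclear RNA, which holds back transcription elongation, had the difference of -2.67. It had 258, 241 and 308 normalised counts in SNU1079 at 16 h, against 823, 747 and 536 at 6 h. RBE cells had 162, 250.5 and 248 at 16 h, against 61.0, 130 and 81.8 at 6 h. The SNU1079 change of -1.36 did not pass without 6 h replicate 1 (-1.24), and the RBE change of 1.31 did not pass (adjusted p = 0.247). The libraries were made from poly(A) RNA, and how fully or evenly they captured 7SK was not tested. RNF207 (-2.24) passed in SNU1079 and not in RBE (0.69, adjusted p = 1.0), with 144, 94.8 and 62.0 in SNU1079 at 16 h, against 277, 234 and 335 at 6 h, while RBE cells had 209.8, 168 and 206 at 16 h, against 120.5, 128 and 111 at 6 h.

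Higher changes in SNU1079 were those of EGR1 (2.78), UNC5CL (1.89), OVGP1 (1.85), MTCP1 (1.68), PHF7 (1.67), TSPAN12 (1.38) and PDCD4 (1.04). A further group of differences rests on genes that SNU1079 hardly expressed, so that their fitted values are no measure of a fold. PLIN2 (fitted 2.82), a coat protein of lipid droplets, had 12.3, 4.71 and 4.21 in SNU1079 at 16 h and was listed at 0 in the 3 libraries at 6 h, while the RBE means were 646 at 16 h and 622 at 6 h. ANK1 (fitted 2.93) had 6.29, 6.85 and 17.6 in SNU1079 at 16 h and 0, 1.02 and 0 at 6 h, beside RBE means of 287 and 267. ZNF429 (fitted 2.09) had 3.05, 1.34 and 7.72 at 16 h and was listed at 0 at 6 h, and FAM239A (fitted -2.88) was listed at 0 at 16 h and had 0.974, 15.2 and 5.50 at 6 h. TMEFF1 (fitted 7.47) had 33.3, 66.4 and 71.2 in SNU1079 at 16 h, against 0, 0 and 43.0 at 6 h; RBE cells had 2.82, 46.5 and 11.8 at 16 h, against 158, 119 and 179 at 6 h; within SNU1079 the 6 h libraries themselves disagreed.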

How the results depend on the processing

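The count of 1530 genes in SNU1079 was 908 to 1337 when 1 of its 6 libraries was left out. It was 4494 with array weights, 2503 from the 12 DMSO libraries, 886 from the 6 compared, 469 from the 12 of the line, 353 against a minimum fold of 1.2, and, in settings chosen after seeing the data, 2579 centred on GC content, 3272 without 3 deviating libraries and 260 within the line without 16 h replicate 1. Higher and lower counts of 682 and 848 were 838 and 633 with equal sums and 371 and 684 scaled to ribosomal protein genes. The 8 genes in RBE were 4 to 16 with a library left out, 13 with a pseudocount of 8 or no filter, 15 with a filter of 50 or from the 12 DMSO libraries, 5 scaled to ribosomal protein genes, 299 with array weights, 68 from the line, 4 from the 6 libraries, 1 at the minimum fold and 32 centred on GC content. The difference of 350 was 204 to 365 with a library left out, 218 scaled to ribosomal protein genes (46 and 172), 3110 with array weights, 726 from the DMSO libraries, 70 at the minimum fold, 1693 without 3 libraries and 999 centred on GC content; with equal sums it split into 220 and 141. Scaled to ribosomal protein genes, the median of all genes was 0.115 in RBE and -0.155 in the difference, against 0.003 and -0.011 in the main fit. No named value changed sign past the threshold, and 565 of 5420 values of named genes lost their call. The 5420 include values of genes that did not pass in the main fit and so had no call to lose. The most losses in any 1 setting were 88, within the line without 16 h replicate 1, where 127 values kept their status. The cause of these shifts was not tested. Replicate numbers did not pair the samples (correlation of deviations -0.128, 0.003 and -0.143 for SNU1079 pairs), and a replicate block gave 1416, 6 and 277 calls. Unknown depth limits what low genes can show.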

Other observations

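Across all genes tested, and not only in the lists, the promoter patterns can be set beside the calls. Of 11985 tested genes with a promoter in the RefSeq table, 4.36% were higher and 5.19% lower at 16 h in SNU1079. Of the 778 with both CHR and CCAAT patterns, 10.5% were higher and 2.70% lower, and of the 750 of these outside the mitotic, NF-kB, interferon and nucleolar lists, 8.80% were higher and 2.67% lower. Among 801 genes with the NF-kB pattern, 3.87% were higher and 7.12% lower, and outside those lists 3.97% of 781 were higher and 6.53% lower. The E-box (4.12% higher and 7.29% lower of 1166) and the response element pattern (3.33% and 7.27% of 330) gave similar shares. These are descriptions with no test.

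Levels in SNU1079 cells given YC-1 were as follows. Their libraries are not compared here, but they share in the filter and in the estimate of spread. TRAF1 averaged 1378 ± 122 with YC-1 at 16 h and 2677 ± 357 with it at 6 h (SD, n = 3 each), so the 16 h mean lay below the 6 h mean there too. CXCL8 averaged 6825 ± 1189 at 16 h and 5809 ± 1236 at 6 h with YC-1, CCND1 averaged 16020 ± 4892 and 11840 ± 2272, and GBP1 averaged 529 ± 56.1 and 484 ± 98.7. EGR1 averaged 338 ± 130 at 16 h and 364 ± 34.6 at 6 h. For CXCL8, CCND1, GBP1 and EGR1 the means at the 2 times with YC-1 differed by less than the larger SD; no test was made.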
